A study of Mus musculus with 9 samples.

Results

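The genes described here are 10 markers of formative and primed pluripotency: Fgf5, Otx2, Pou3f1, Lef1, Sox3, Zic2, Zic5, Cdh2, Sox4 and Tcf15. They were picked out by symbol, with earlier results of these data known. Each had a row of its own among the 30232 genes of the count table. Their transcripts were counted in 9 libraries of mouse embryonic stem cells, 5 from Gzf1-knockout and 4 from wild-type cells. Knockout replicates 1 and 2 and wild-type replicates 1 and 2 are cells of the line RGM, sequenced in run2. Knockout replicates 3, 4 and 5 and wild-type replicate 3 are V6.5, an embryonic stem cell line of hybrid mouse background, and wild-type replicate 4 is a line labelled Cas9-GFP; these 5 libraries belong to run1. All cells had grown on irradiated embryonic fibroblasts in medium with serum and LIF, and the feeders were depleted before harvest. The labels give neither the allele of the knockout nor the number of clones, and p-values here speak only to the spread among the libraries, part of which may be technical.

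Embryonic stem cells kept with LIF and serum are held near the naive state of the blastocyst. On the way to lineage commitment, naive cells pass through a formative state, as in the early post-implantation epiblast, and then a primed state. FGF signalling through ERK drives this exit, the transcription factor OTX2 redirects OCT4 to formative enhancers, and Wnt signals act through TCF and LEF factors. Fgf5 is the classic ligand gene of the formative epiblast, and a switch from E-cadherin to N-cadherin (Cdh2) accompanies later differentiation. GZF1 is a zinc finger protein that the series' title links to imprinting of the Dlk1-Dio3 region, and the design compares cells with and without it.

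Library totals were 2568489 to 3704162 counts in RGM and 4872127 to 7072697 in run1, where 3 counts correspond to 0.412 to 1.18 CPM (counts scaled to the TMM-adjusted library size) depending on the library. The pluripotency genes that define these cells were detected in every library, with Pou5f1 at 25.3 to 52.5 CPM, Sox2 at 359 to 591, Sall4 at 138 to 287 and Nanog at 552 to 1083. Gzf1 itself averaged 7.19 ± 4.78 CPM in knockout (SD, n = 5) and 21.3 ± 10.2 CPM in wild-type libraries (SD, n = 4). Over all libraries the genotypes overlapped. Knockout libraries reached 14.2 CPM in RGM and 9.40 CPM in run1, above the lowest wild-type library, V6.5 at 8.11 CPM. Within RGM they did not overlap, with knockout libraries at 5.45 and 14.2 CPM and wild-type libraries at 28.6 CPM or more. Over all libraries the Gzf1 log2 fold change of -1.45 (SE 0.42) had an unadjusted p of 0.0048 and an adjusted p of 0.9998 in edgeR. The edgeR log2 fold change was -1.595 (SE 0.66, unadjusted p = 0.034) within RGM and -1.328 (SE 0.58, unadjusted p = 0.043) within run1. Neither passed after adjustment. A count of 3' ends need not report an edit elsewhere in the gene. Fibroblast markers of the feeder layer summed to 3845 to 6209 CPM in RGM libraries and 1839 to 2694 CPM in run1 libraries. Since RGM is the only line of run2, cell line and run cannot be told apart in any comparison of RGM with the other lines.

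More members parted by line than by genotype, and the same held for all tested genes. Lef1, Otx2 and Fgf5 were higher in every RGM library than in every run1 library, whereas Tcf15 and Pou3f1 were lower in every RGM library, and the other 5 members overlapped. Of the 12645 genes that passed the filter on low counts, 19.4% lay wholly higher and 19.2% wholly lower in RGM, 38.6% in all. Between knockout and wild type 0.443% of tested genes did not overlap over all 9 libraries, and every member overlapped. No member passed the threshold between the genotypes, as 0.0316% of tested genes did in edgeR. In bulk RNA, fewer cells of a type and less RNA per cell cannot be told apart.

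**Figure D1:**
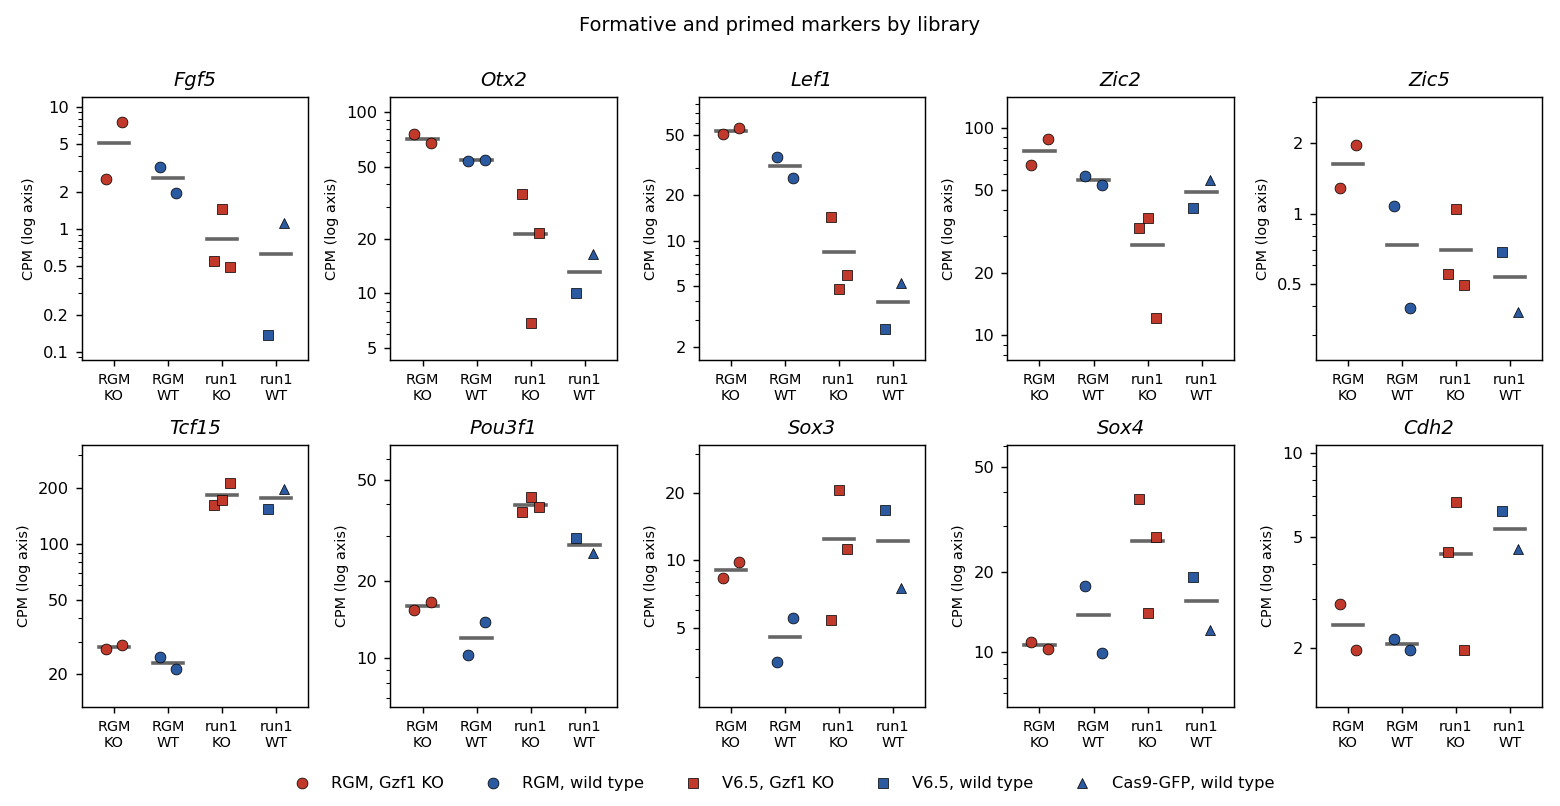
Level of each of the 10 genes in each of the 9 libraries, in CPM on a log axis, by line and genotype; colours give the genotype, shapes the cell line, and grey lines the group mean. Fgf5, Otx2 and Lef1 sit higher in all 4 RGM libraries than in the 5 run1 libraries, Tcf15 and Pou3f1 lower, and Otx2 and Zic2 spread widely among the 3 V6.5 knockout libraries.

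Lef1, the transcription factor that carries Wnt and beta-catenin signals to DNA, spans chr3:131110471-131224356 on the plus strand (GRCm38). It was at 50.6 and 55.3 CPM in RGM knockout libraries, against 14.4, 4.80 and 5.90 CPM in V6.5 knockout libraries. In wild type it was at 35.9 and 26.0 CPM in RGM, against 2.61 CPM in V6.5 and 5.28 CPM in Cas9-GFP. The lowest RGM library, a wild-type one, thus lay above the highest run1 library, which was knockout replicate 3. Lef1 was 6.19-fold higher in RGM than in run1 knockout libraries (log2 fold change 2.63, SE 0.41, edgeR adjusted p = 0.001) and 8.03-fold higher in RGM than in run1 wild-type libraries (3.00, SE 0.50, adjusted p = 0.002). It remained past the threshold in all 9 fits that left out 1 library, in both genotypes.

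Otx2, the homeodomain factor of the early epiblast and later the forebrain, lies at chr14:48657677-48673819 on the minus strand. It was at 75.3 and 67.1 CPM in RGM knockout libraries, against 35.3, 6.89 and 21.5 CPM in V6.5 knockout libraries. Among wild-type libraries it was at 53.9 and 54.1 CPM in RGM, against 10.0 CPM in V6.5 and 16.4 CPM in Cas9-GFP. RGM libraries kept within 1.40-fold of each other, while the 3 V6.5 knockout libraries spanned 5.12-fold. Otx2 was 3.31-fold higher in RGM than in run1 knockout libraries (log2 fold change 1.73, SE 0.45, edgeR adjusted p = 0.018) and 4.11-fold higher in wild type (2.04, SE 0.53, adjusted p = 0.017). The call was lost without knockout replicate 1 (adjusted p = 0.12) or 2 (0.088) in the knockout comparison, and without wild-type replicate 1 (0.084), 2 (0.078), 3 (0.12) or 4 (0.05 after rounding) in the wild-type comparison. The antisense transcript Otx2os1 overlaps Otx2 over 5112 bases, but its own row held 28 counts in all 9 libraries together, against 824 counts of Otx2 in knockout and 497 in wild-type libraries. Lef1 also has an antisense gene model, Gm43352, with no row of its own, and whether counting used strand is not stated in the labels. Same-strand models with no row of their own overlap too, Gm42449 over 2258 bases of Lef1 and Gm49154 over 1726 bases of Otx2.

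Since Lef1 and Otx2 were the tested members higher in RGM in both genotypes, the RefSeq promoter windows (GRCm38.p6) of their most upstream starts are shown. Each covers 250 bases before and 50 after the start, read 5′ to 3′ along the gene, with CpG dinucleotides in capitals. The Lef1 window is chr3:131110047-131110346 on the plus strand and the Otx2 window chr14:48667595-48667894 on the minus strand.
Lef1: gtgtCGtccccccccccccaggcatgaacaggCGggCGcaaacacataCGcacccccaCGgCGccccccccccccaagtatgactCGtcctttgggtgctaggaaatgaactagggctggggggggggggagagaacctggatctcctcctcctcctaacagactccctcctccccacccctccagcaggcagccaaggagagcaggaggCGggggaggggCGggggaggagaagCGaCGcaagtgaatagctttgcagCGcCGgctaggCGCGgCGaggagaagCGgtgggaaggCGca
Otx2: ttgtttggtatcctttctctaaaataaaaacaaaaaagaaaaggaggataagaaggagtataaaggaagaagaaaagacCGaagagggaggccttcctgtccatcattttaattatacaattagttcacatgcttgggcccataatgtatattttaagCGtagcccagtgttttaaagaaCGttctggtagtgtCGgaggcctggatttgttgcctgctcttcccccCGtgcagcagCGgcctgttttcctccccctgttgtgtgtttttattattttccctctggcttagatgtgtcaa
The Lef1 window held 18 CpG at 67.3% GC and the Otx2 window 6 CpG at 41.7% GC, where the median over 32851 windows was 7 CpG and 52.7% GC. CTTTGAT, the core letters that TCF and LEF factors bind, was absent from both windows on either strand and present in 3.73% of all windows. TAATCC, the letters that OTX2 binds, was absent from both as well and present in 7.06% of all windows; 1 of the 4 annotated Otx2 starts, the third, had 1 match. The RefSeq table matched 5 of the 10 members, and Pou3f1, Sox3, Zic2, Cdh2 and Tcf15 are named only.

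Tcf15, a basic helix-loop-helix factor that in mouse embryonic stem cells marks and promotes priming for differentiation, lies at chr2:152143561-152149097 on the plus strand. It was at 27.2 and 28.8 CPM in RGM knockout libraries, against 162, 173 and 213 CPM in V6.5 knockout libraries. Its wild-type levels were 24.8 and 21.3 CPM in RGM, against 155 CPM in V6.5 and 197 CPM in Cas9-GFP. The groups were far apart and tight, and run accounted for 98.6% of the variance of its log2 level over the 9 libraries, where the median tested gene had 46.2%. Tcf15 was 6.51-fold lower in RGM than in run1 knockout libraries (log2 fold change -2.70, SE 0.22, edgeR adjusted p = 1.4e-05) and 7.58-fold lower in wild type (-2.92, SE 0.23, adjusted p = 1.9e-05), and the call stood without any 1 library.

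Pou3f1, also called Oct6, is a POU-domain factor of the formative epiblast and of neural cells, at chr4:124656807-124660655 on the plus strand. It was at 15.4 and 16.6 CPM in RGM knockout libraries, against 37.5, 42.8 and 39.0 CPM in V6.5 knockout libraries. In wild type it was at 10.2 and 13.8 CPM in RGM, against 29.5 CPM in V6.5 and 25.8 CPM in Cas9-GFP. Unlike Otx2, it was even among the 3 V6.5 knockout libraries, within 1.14-fold. Pou3f1 was 2.49-fold lower in RGM than in run1 knockout libraries (log2 fold change -1.31, SE 0.24, edgeR adjusted p = 0.0026) and 2.32-fold lower in wild type (-1.22, SE 0.26, adjusted p = 0.0067). The knockout call was lost without knockout replicate 1 (adjusted p = 0.051) and the wild-type call without wild-type replicate 1 (0.10). The antisense model Gm2164, with no row of its own, overlaps 363 bases of Pou3f1.

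Fgf5, the ligand, lies at chr5:98254184-98277030 on the plus strand and was too rare for the filter on low counts. It had 8 and 19 counts in RGM knockout libraries, against 4, 7 and 3 in the deeper V6.5 knockout libraries. In wild type it had 12 and 5 counts in RGM, against 1 in V6.5 and 6 in Cas9-GFP. Scaled to library size these are 1.97 to 7.50 CPM in RGM and 0.137 to 1.46 CPM in run1, so the line sets did not overlap. The gap lay between 5 counts in wild-type replicate 2 and 7 counts in knockout replicate 4, and a few counts could close it. In an edgeR fit without the filter, over 20372 genes, Fgf5 was higher in RGM than in run1 knockout libraries (log2 fold change 2.54, SE 0.68, adjusted p = 0.0021). Between wild-type libraries the log2 fold change was 2.12 (SE 0.83, adjusted p = 0.053). DESeq2 without the filter gave Fgf5 weaker adjusted p values, 0.033 in knockout and 0.16 in wild-type libraries. The unfiltered edgeR fit called more genes between the genotypes, 35 against 4 with the filter and 9 in unfiltered DESeq2. Its adjusted p for a gene of so few counts is to be read with care.

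Zic2 and Zic5 encode zinc finger factors of the primed epiblast and the neural tube and stand as a divergent pair on chromosome 14, Zic5 at chr14:122456795-122465677 on the minus strand and Zic2 at chr14:122475435-122479852 on the plus strand, 9757 bases apart. Zic2 was at 66.3 and 88.0 CPM in RGM knockout libraries, against 33.0, 36.8 and 12.1 CPM in V6.5 knockout libraries. Among wild-type libraries it was at 58.8 and 53.3 CPM in RGM, against 41.2 CPM in V6.5 and 56.4 CPM in Cas9-GFP. Both RGM libraries lay above all 3 V6.5 libraries in the knockout, as in 26.3% of all genes, and the lines overlapped in wild type. Zic2 was 2.83-fold higher in RGM than in run1 knockout libraries (log2 fold change 1.50, SE 0.36, edgeR adjusted p = 0.012), a call lost without knockout replicate 2 (0.11), while in wild type the value was 0.20 (SE 0.40, adjusted p = 0.75). The difference between these 2 values, which is also the difference of the knockout effect between runs, was 1.29 (SE 0.54, unadjusted p = 0.035, adjusted p = 1), so it did not pass. Zic5 had 1 to 5 counts in each library, too few for the filter, and its level of 0.377 to 1.97 CPM overlapped between lines.

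The Sox genes showed no line difference that held in both genotypes. Sox3, an X-linked relative of Sox2 of the neural epiblast (chrX:60891366-60893430, minus strand), was at 8.33 and 9.87 CPM in RGM knockout libraries, against 5.39, 20.7 and 11.3 CPM in V6.5 knockout libraries. Its wild-type levels were 3.50 and 5.53 CPM in RGM, against 16.9 CPM in V6.5 and 7.54 CPM in Cas9-GFP. The log2 fold change of RGM over run1 was -0.44 (SE 0.54, edgeR adjusted p = 0.58) in knockout and -1.47 (SE 0.62, adjusted p = 0.098) in wild-type libraries. Sox3 did pass in wild type under 5 alternatives: without the low-count filter (adjusted p = 0.0088), in limma voom (0.024), in the wild-type libraries alone (0.032) and without knockout replicate 3 (0.048) or 4 (0.038). Leaving out 1 library moved its wild-type value between -1.93, without wild-type replicate 4, and -0.77, without wild-type replicate 3.

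Sox4, a factor of progenitor cells in many tissues (chr13:28948919-28953713, minus strand), was at 10.9 and 10.3 CPM in RGM knockout libraries, against 37.9, 14.0 and 27.0 CPM in V6.5 knockout libraries. In wild type it was at 17.8 and 9.87 CPM in RGM, against 19.1 CPM in V6.5 and 12.1 CPM in Cas9-GFP. It was 2.50-fold lower in RGM than in run1 knockout libraries (log2 fold change -1.32, SE 0.43, edgeR adjusted p = 0.04), but this passed in 2 of the 9 fits that left out 1 library, with adjusted p values of 0.0047 to 0.21. Its wild-type log2 fold change was -0.16 (SE 0.45, adjusted p = 0.83). The opposite-strand model Gm26735, with no row of its own, overlaps 2753 bases of Sox4.

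Cdh2, the N-cadherin gene of mesenchymal and neural cells (chr18:16588877-16809246, minus strand), was low throughout, at 5 to 45 counts. Its level was 2.88 and 1.97 CPM in RGM knockout libraries, against 4.42, 6.68 and 1.97 CPM in V6.5 knockout libraries. Among wild-type libraries it was at 2.16 and 1.97 CPM in RGM, against 6.18 CPM in V6.5 and 4.52 CPM in Cas9-GFP. Neither difference passed, with log2 fold changes of -0.80 (SE 0.57, edgeR adjusted p = 0.33) in knockout and -1.36 (SE 0.61, adjusted p = 0.12) in wild-type libraries. Fibroblasts also express Cdh2, and the part of feeder RNA in its level was not tested. The antisense model Gm15485, with no row of its own, overlaps 946 bases of Cdh2.

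In all, 6 of the 8 tested members passed between RGM and run1 knockout libraries, 3 higher (Lef1, Otx2 and Zic2) and 3 lower (Tcf15, Pou3f1 and Sox4). Among all tested genes 25% passed, 12.6% higher and 12.4% lower. Between RGM and run1 wild-type libraries 4 of 8 passed, 2 in each direction, against 24.4% of all genes. These 4, Lef1, Otx2, Tcf15 and Pou3f1, passed in both genotypes in the same direction, as did 17.4% of all genes, 8.81% higher and 8.57% lower. The median log2 fold change of the 8 members was -0.62 in knockout and -0.69 in wild-type libraries, against -0.02 and -0.01 over all genes, and the members' values lay on both sides of 0. By size, the fold change of Lef1 exceeded that of 97.5% of tested genes in knockout and 98.1% in wild-type libraries, and that of Tcf15 97.7% and 97.9%.

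**Figure D2:**
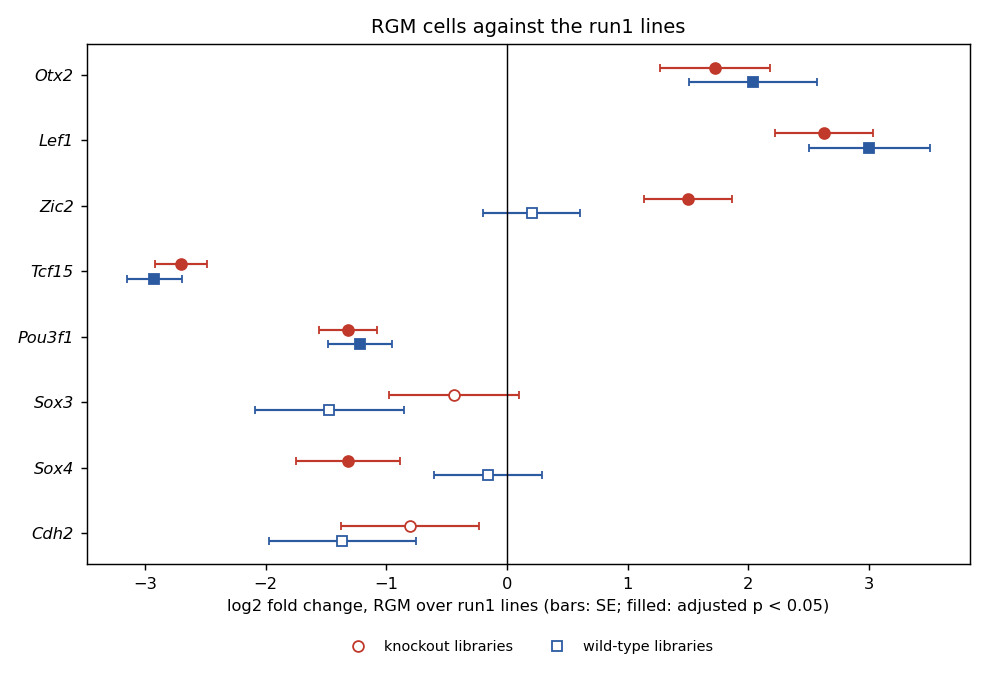
Log2 fold change of RGM over run1 libraries for the 8 tested members, with standard errors as bars, in knockout libraries (circles) and wild-type libraries (squares); filled symbols have an edgeR adjusted p under 0.05. Lef1 and Otx2 lie right of 0 and Tcf15 and Pou3f1 left of 0 in both genotypes, while Zic2 and Sox4 are filled in knockout libraries and open in wild-type libraries.

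Between knockout and wild type no member passed and none separated the genotypes over all 9 libraries, as 0.443% of genes did (0.198% higher, 0.245% lower). With run as a term, 0 of 8 tested members passed in edgeR, DESeq2 or limma voom, where 0.0316% of all genes did in edgeR (4 genes, each of them lower). Lef1 had the largest value among the members, a log2 fold change of 0.94 (SE 0.31, unadjusted p = 0.0093), larger in size than that of 99.4% of tested genes. Pou3f1 was at 0.48 (SE 0.17, unadjusted p = 0.011) and Otx2 at 0.56 (SE 0.35, unadjusted p = 0.13). These 2 genes, Lef1 and Pou3f1, were the members under an unadjusted p of 0.05, as were 2.32% of all genes. Every tested member's adjusted p was at least 0.9998 in this edgeR fit. The values were 0.37 (SE 0.40) for Sox3, 0.30 (SE 0.34) for Sox4, 0.14 (SE 0.14) for Tcf15, -0.27 (SE 0.33) for Zic2 and -0.15 (SE 0.38) for Cdh2. The value was positive in 6 of 8 members, with a median of 0.33 against 0.01 over all genes. Without the filter Fgf5 was at 0.68 (SE 0.53, unadjusted p = 0.20) and Zic5 at 0.59 (SE 0.70, unadjusted p = 0.40).

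**Figure D3:**
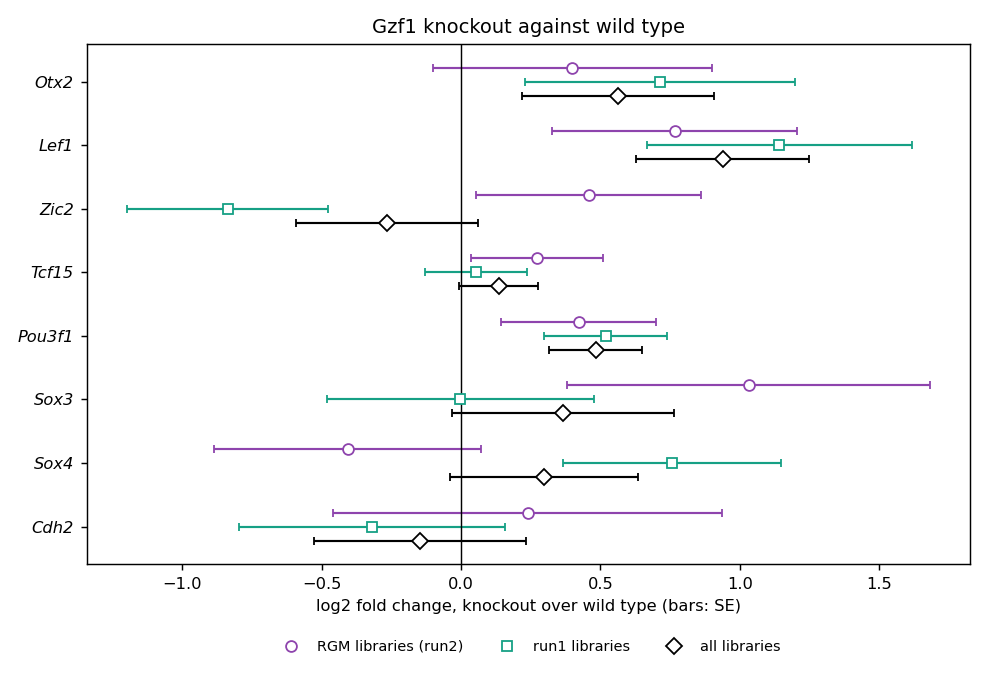
Log2 fold change of Gzf1 knockout over wild type for the 8 tested members, with standard errors as bars, within RGM (circles), within run1 (squares) and over all 9 libraries with run as a term (diamonds). No symbol is filled because no adjusted p was under 0.05. Lef1, Otx2, Pou3f1 and Tcf15 lie right of 0 in both runs, and Zic2, Sox4 and Cdh2 lie on opposite sides of 0 in the 2 runs. Sox3 lies right of 0 in RGM and near 0 in run1.

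Within RGM, 6 of the 8 tested members lay higher in both knockout libraries than in both wild-type libraries: Otx2, Pou3f1, Lef1, Sox3, Zic2 and Tcf15. With 2 libraries against 2, 18% of all tested genes did so. Zic5, which failed the filter, had 4 and 5 counts in knockout and 4 and 1 in wild-type libraries. Log2 fold changes in RGM were 1.03 (SE 0.65) for Sox3, 0.77 (SE 0.44) for Lef1, 0.46 (SE 0.40) for Zic2, 0.42 (SE 0.28) for Pou3f1, 0.40 (SE 0.50) for Otx2, 0.27 (SE 0.24) for Tcf15, 0.24 (SE 0.70) for Cdh2 and -0.41 (SE 0.48) for Sox4. No member passed, and 0% of all genes did in edgeR, with 0.822% of all genes and no member under an unadjusted p of 0.05. DESeq2 called 2 genes and voom 4, none of them a member. The median over the 8 members was 0.41, against 0.01 over all genes. Feeder markers summed to 3845 and 6209 CPM in the knockout and 4382 and 4979 CPM in the wild-type libraries of RGM, so they overlapped between genotypes.

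Within run1, Pou3f1 was the member higher in all 3 knockout libraries than in both wild-type libraries, as were 6.43% of all genes, and Zic2 was lower in all 3, as were 7.1%. Pou3f1 had a log2 fold change of 0.52 (SE 0.22, unadjusted p = 0.035), Lef1 of 1.14 (SE 0.47, unadjusted p = 0.033) and Zic2 of -0.84 (SE 0.36, unadjusted p = 0.04). Each had an adjusted p of 0.9995 in edgeR, where 0.0158% of all genes passed and 3.84% were under an unadjusted p of 0.05. Without knockout replicate 3, the highest V6.5 library for Lef1, its log2 fold change was the lowest of the 9 such fits, at 0.48. For Otx2 the log2 fold change was 0.71 (SE 0.48), and it ranged from 0.14 without knockout replicate 3 to 1.12 without knockout replicate 4. The remaining values were 0.76 (SE 0.39) for Sox4, 0.05 (SE 0.18) for Tcf15, -0.00 (SE 0.48) for Sox3 and -0.32 (SE 0.48) for Cdh2. Wild-type replicate 4 is Cas9-GFP and the knockout libraries are V6.5, so V6.5 is set here against a mixed pair. Zic2, Sox4 and Cdh2 pointed in opposite directions in RGM and run1, and Sox3 was near 0 in run1 alone. The difference between runs did not pass for any member, or for any gene in edgeR (0% of genes, with 1.44% under an unadjusted p of 0.05). For Sox4 that difference was -1.16 (SE 0.62, unadjusted p = 0.082).

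Of the 8 tested members, 7 had a larger standard deviation among the 3 V6.5 knockout libraries than among the 4 RGM libraries, Tcf15 only slightly so. The median over all tested genes went the same way, at 0.33 against 0.19, and the share of genes doing so was not counted. Otx2 was lowest in replicate 4 and highest in replicate 3, and Lef1 followed the same order of extremes, whereas Sox3 was highest in replicate 4 and lowest in replicate 3. Zic2 and Cdh2 were lowest in replicate 5. The standard deviation of the log2 level over these 3 libraries was 1.17 for Otx2, 0.93 for Sox3, 0.86 for Zic2, 0.80 for Lef1 and Cdh2 and 0.72 for Sox4, against a median of 0.33 over all tested genes. Over the 4 RGM libraries it was 0.24 for Otx2, 0.62 for Sox3, 0.31 for Zic2, 0.49 for Lef1, 0.22 for Cdh2 and 0.38 for Sox4, against a median of 0.19. Pou3f1 went the other way, with 0.10 in V6.5 knockout and 0.30 in RGM libraries, and Tcf15 was close, with 0.21 in V6.5 knockout and 0.19 in RGM libraries.

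Other genes of the same transition were read from lists chosen by function, and no gene of any of the 11 lists passed between knockout and wild type. Of 22 other formative and primed genes tested, 4 were higher and 2 lower in RGM than in run1 knockout libraries, and 4 were higher and 3 lower in wild type, totals near the 25% and 24.4% of all tested genes. Lin28a, the RNA-binding repressor of let-7 maturation, was higher (log2 fold change 1.70, SE 0.23, edgeR adjusted p = 0.00044 in knockout; 1.38, SE 0.26, 0.0035 in wild type). Dnmt3b, a de novo DNA methyltransferase, was higher in knockout libraries, at 110 and 188 CPM in RGM against 53.4 to 80.0 CPM in V6.5 (1.25, SE 0.25, adjusted p = 0.0044). The ETS factors Etv5 (-1.36, SE 0.24, adjusted p = 0.0021) and Etv4 (-1.06, SE 0.22, adjusted p = 0.0056) were lower in RGM knockout libraries, and both were lower in wild type too (-1.44 and -1.27).

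The FGF and ERK list, the pathway of Fgf5, had calls in both directions. Of its 20 tested genes, 5 were higher and 5 lower in RGM than in run1 knockout libraries, and 5 higher and 4 lower in wild type. Over all tested genes 25% passed in knockout and 24.4% in wild-type libraries. Dusp4, an ERK phosphatase, was at 52.9 and 63.9 CPM in RGM knockout libraries, against 5.08 to 10.1 CPM in V6.5 (log2 fold change 2.96, SE 0.36, edgeR adjusted p = 0.00021). Its wild-type value was 3.54 (SE 0.43, adjusted p = 0.00038). Fgfr2, an FGF receptor, was higher by 2.09 (SE 0.29, adjusted p = 0.00051) in knockout and 1.80 (SE 0.32, 0.0024) in wild type. Fgf4, the ligand that embryonic stem cells make themselves, was lower in RGM than in run1 wild-type libraries (log2 fold change -1.34, SE 0.23, adjusted p = 0.0022). In knockout libraries Fgf4 was at 111 and 109 CPM in RGM, against 197 to 335 CPM in V6.5.

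Wnt genes, the pathway in which Lef1 acts, were read next. Of 20 tested genes, 6 were higher and 0 lower in RGM than in run1 knockout libraries, and 5 were higher and 0 lower in wild type. All tested genes had 12.6% higher and 12.4% lower in knockout and 12.1% higher and 12.3% lower in wild type, so the total of calls was near the share over all genes. Axin2, a feedback inhibitor that reports Wnt activity, was at 21.8 and 24.5 CPM in RGM knockout libraries, against 3.97 to 9.68 CPM in V6.5 (log2 fold change 1.56, SE 0.36, edgeR adjusted p = 0.0086). In wild type it was at 23.2 and 18.5 CPM in RGM, against 7.42 and 5.47 CPM in run1. Tcf7, a relative of Lef1, was higher in RGM by 0.76 (SE 0.20, adjusted p = 0.018) between knockout libraries. Its wild-type levels were 103 and 115 CPM in RGM, against 57.7 and 62.8 CPM in run1. Sp5, a direct Wnt target, was at 10.5 to 17.0 CPM in the 4 RGM libraries and 0 to 1.97 CPM in the 5 run1 libraries. Between wild-type libraries the receptor genes Lrp5 (1.32, SE 0.27, adjusted p = 0.0049) and Fzd2 (1.87, SE 0.41, adjusted p = 0.0072) were higher in RGM. In knockout libraries Lrp5 was at 28.5 and 26.4 CPM in RGM, against 14.8 to 19.5 CPM in V6.5. Fzd2 was at 18.3 and 22.9 CPM there, against 6.06 to 11.8 CPM in V6.5. The median log2 fold change of the list was 0.32 in knockout and 0.34 in wild-type libraries.

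Around Tcf15, 10 genes of E proteins, Id proteins and their BMP inputs were tested. In RGM knockout libraries 3 were higher and 2 lower than in run1, and in wild type 3 were higher and 0 lower. The shares over all tested genes were 25% and 24.4%. Tcf3, an E protein gene, was higher by 0.93 (SE 0.17, edgeR adjusted p = 0.0028) in knockout and 0.63 (SE 0.19, 0.033) in wild type. Id3, which encodes an inhibitor that binds E proteins, was higher in RGM by 1.53 (SE 0.35, adjusted p = 0.009) between knockout libraries, and Id4 by 1.44 (SE 0.44, adjusted p = 0.031) between wild-type libraries. In wild type Id3 was at 221 and 202 CPM in RGM, against 86.5 and 161 CPM in run1. In knockout libraries Id4 was at 10.9 and 16.2 CPM in RGM, against 5.81 to 10.7 CPM in V6.5. Smad1, which encodes a transducer of BMP signals, was lower in RGM knockout libraries (log2 fold change -1.26, SE 0.34, adjusted p = 0.018).

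Among 19 cadherin and epithelial-state genes, the setting of Cdh2, 7 were higher and 1 lower in RGM than in run1 knockout libraries, and 6 higher and 1 lower in wild type. For these and the feeder genes below, the shares over all tested genes were 25% in knockout and 24.4% in wild type. Snai1, a repressor of E-cadherin (1.80, SE 0.26, edgeR adjusted p = 0.00067), Vim, the mesenchymal intermediate filament gene (1.26, SE 0.19, 0.00076), and Esrp1, an epithelial splicing factor gene (1.86, SE 0.29, 0.00092), were all higher in RGM than in V6.5 knockout libraries. In wild type Snai1 was higher by 2.05 (SE 0.31, adjusted p = 0.0011) and Vim by 1.32 (SE 0.21, 0.0016). Esrp1 was at 75.5 and 60.4 CPM in RGM wild type, against 15.8 and 26.6 CPM in run1. Vim and Snai1 are expressed in fibroblasts as well. Feeder fibroblast genes were higher in 19 of 31 tested cases in knockout and 17 of 31 in wild-type libraries, with 0 lower, and Lox, a collagen cross-linking enzyme of fibroblasts, was higher by 2.32 (SE 0.26, adjusted p = 0.00012) and 2.38 (SE 0.30, 0.00043). Defining fibroblast genes were present in both runs, with Col1a1 at 284 to 575 CPM in RGM and 160 to 350 CPM in run1 libraries, while Lum was at 0 to 1.04 CPM in run1. The part of feeder RNA in the members' line differences was not tested.

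Naive genes, the counterpart of the members, had calls in both directions: of 22, 4 were higher and 5 lower in RGM than in run1 knockout libraries, and 1 higher and 6 lower in wild type. All tested genes passed at 25% in knockout and 24.4% in wild type. Klf4, a naive transcription factor, was lower in RGM than in V6.5 knockout libraries (log2 fold change -1.36, SE 0.21, edgeR adjusted p = 0.001). In wild type it was at 192 and 197 CPM in RGM, against 447 and 381 CPM in run1. Zfp42, also called Rex1, was higher in RGM by 3.14 (SE 0.16, edgeR adjusted p = 2.8e-07) in knockout and 3.49 (SE 0.19, 8.6e-07) in wild type. Of 12 core pluripotency genes, 1 was higher (Lin28a, also on the formative list) and 1 lower in knockout, and 1 higher and 4 lower in wild type. Their summed level overlapped between lines, at 3273 to 4188 CPM in RGM and 3299 to 4263 CPM in run1.

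Lineage markers were mostly low. Their calls stand beside shares over all tested genes of 25% in knockout and 24.4% in wild type. Of 14 mesendoderm genes 6 were tested, with 3 higher and 0 lower in RGM in knockout libraries and 3 higher and 1 lower in wild type. T, Wnt3 and Fgf8 were the 3 higher in both. T, or brachyury, was at 4.80 to 5.92 CPM in the 4 RGM libraries and 0 to 0.418 CPM in run1. Of 20 neuroectoderm genes 11 were tested, 2 higher and 4 lower in knockout and 1 higher and 3 lower in wild type. Olig2, an oligodendrocyte and motor neuron factor, had 0 counts in all 4 RGM libraries, where 3 counts would be 0.809 to 1.18 CPM, and 26.4 to 39.3 CPM in the 5 run1 libraries. Of 10 tested primitive endoderm genes 2 were higher and 1 lower in knockout and 3 higher and 0 lower in wild type, among them Dab2, an endocytic adaptor gene (log2 fold change 2.87, SE 0.32, edgeR adjusted p = 0.00012 in knockout). In wild type Dab2 was higher in RGM by 3.63 (SE 0.39, adjusted p = 0.00016).

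**Figure D4:**
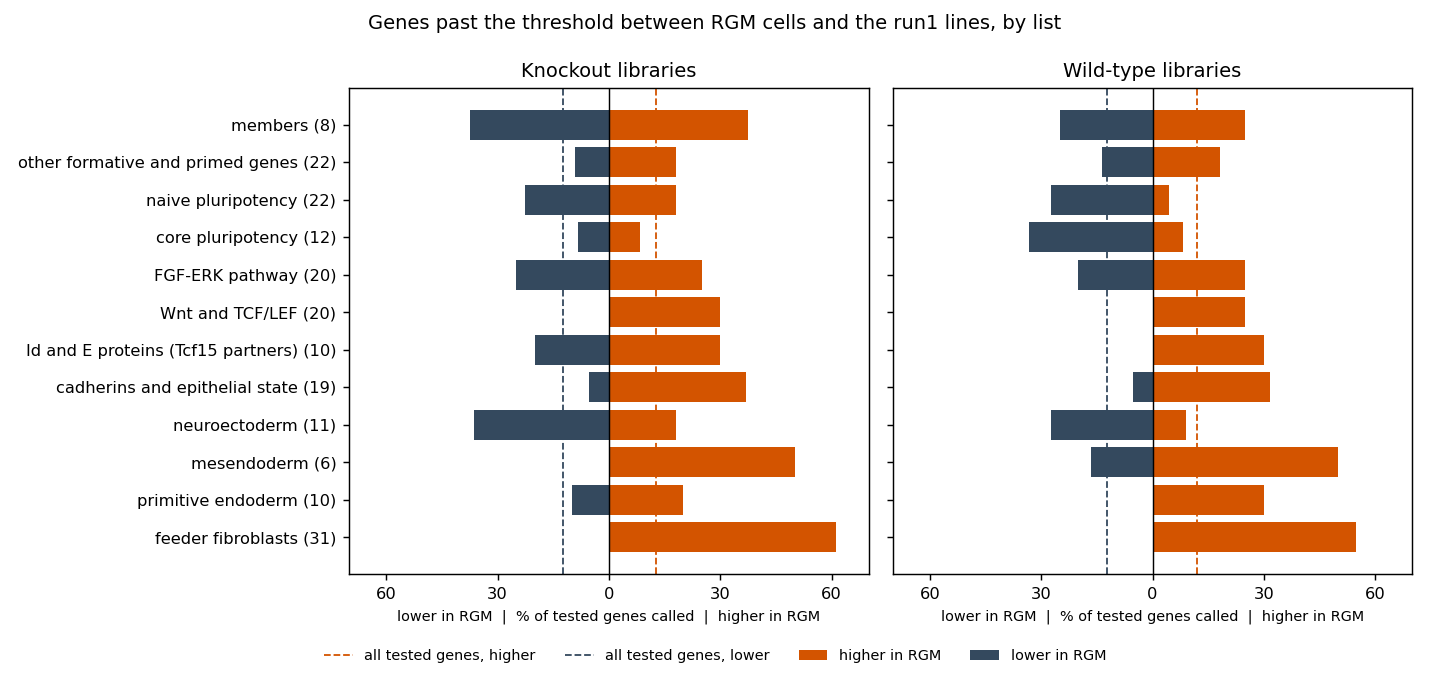
Share of each list's tested genes that were higher (right) or lower (left) in RGM than in run1 libraries at an edgeR adjusted p under 0.05, in knockout libraries and in wild-type libraries; list sizes are in brackets and dashed lines mark the share of all tested genes. The Wnt list (6 and 5 calls) and the feeder list (19 and 17 calls) have bars to the right only, while the members, the FGF and ERK list and the naive list have bars on both sides.

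For the 4 members that passed in both genotypes, the tested gene with the most similar profile over the 9 libraries was found by the root mean square difference of centred log2 CPM. It was Cnpy1 for Otx2 (0.23, where the median tested gene had 1.19), Slc7a1 for Pou3f1 (0.19, median 0.77) and Mep-1beta for Lef1 (0.37, median 1.52). For Tcf15 it was AK017068 (0.17, median 1.43), a row with no count in any RGM library, so that this likeness depends on the prior count of 2. The next row was Nudc (0.21), named after its values were seen, which had log2 fold changes of -2.85 in knockout and -2.75 in wild-type libraries between RGM and run1.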

How the data were processed

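Poly(A)+ RNA of 9 libraries was profiled with MARS-seq2.0, a 3' counting method, per the labels' protocols. The authors deposited raw counts, 1 row per gene symbol; the unit was read from the values, which are whole and sum to unequal totals. Per the submitters' processing notes STAR, DESeq2 and mm10 were used. The counter, the annotation and the use of strand or molecular identifiers were not given in the sources used here, so floors cover counting error only.

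Of 30324 rows, 92 spike-in rows (1 count) were left out. filterByExpr (minimum count 10, by genotype) kept 12645 genes and 8 of the 10 members; Fgf5 and Zic5 were tested among 20372 genes without it. TMM-scaled counts were tested with the robust quasi-likelihood F test of edgeR 4.0.16 (R 4.3.3), adjusted by Benjamini-Hochberg over all tested genes (threshold 0.05). The knockout effect over all libraries had run as a term; all other comparisons were contrasts of 4 groups, each a genotype in a run. SE is the size of the log2 fold change over the root of F. The code was tested on simulated data.

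The members and lists were chosen with earlier results of these data known. Genes named are the members, Gzf1, up to 3 genes per list and comparison (6 for other formative genes; calls of smallest adjusted p first, then the most expressed), the nearest profile of members called in both line comparisons, and defining markers. Alternatives were DESeq2 1.42.0, voom (limma 3.58.1), RLE factors, no filter or a minimum of 30, each library left out, a replicate block, cell line in place of run, and the compared libraries alone; unfiltered DESeq2 was added after the data were seen. Same-group libraries differed beyond sampling noise. The chi-square per degree of freedom was 2.48 and 3.1 for RGM pairs and 13.8 to 24 for the deeper run1 pairs. Each library was taken as 1 replicate, but such excess does not tell biological from technical replicates. Positions are from GENCODE M21 (GRCm38).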

Additional observations from a re-analysis of the deposited data

Results flagged for a closer look

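Within the sets of libraries from 1 genotype or 1 run, 40 sets of 4 or 5 libraries were checked for a value far from the rest, and 2 were found; chance alone gives about 1 in 20. Lef1 was at 14.4 CPM in knockout replicate 3, far above the other run1 libraries, whose values were 2.61 to 5.90 CPM, with a gap of 0.72 of the range. Sox4 was at 17.8 CPM in wild-type replicate 1, above the other 3 RGM libraries at 9.87 to 10.9 CPM, with a gap of 0.87 of the range. Without wild-type replicate 1, the Sox4 knockout effect within RGM was 0.10 on the log2 scale, against -0.41 with it.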

How the results depend on the processing

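No member passed between knockout and wild type under any alternative, and the 4 line calls shared by both genotypes kept their direction throughout. The closest to the threshold was Lef1 over all libraries in edgeR without the filter (unadjusted p = 9.4e-05, adjusted p = 0.053). Genes called in the knockout comparison of all libraries were 4, against 7 with DESeq2 or voom, 35 without the filter, 2 with cell line in place of run and 9 with unfiltered DESeq2 (2 to 4 leaving out each library). Within RGM 0 became 2 with DESeq2 (filtered or not), 7 without the filter, 4 with voom and 9 in RGM libraries alone (0 to 1 leaving out each library). Within run1 2 became 4 with DESeq2 (filtered or not), 46 without the filter and 1 in run1 libraries alone (0 to 8). The difference between runs had 0 calls, and 1 without the filter. Line calls of 3160 in knockout became 1660 in knockout libraries alone (892 to 3531 leaving out each library, members 3 to 6), and 3081 in wild type became 4874 with voom (883 to 4087, members 2 to 5). Values near 0 changed sign: the Sox3 knockout effect within run1 was 0.0072 with DESeq2, 0.0056 unfiltered and 0.0083 in run1 libraries alone; Zic2 over all libraries was 0.060 and the Sox3 line difference in knockout 0.035 with voom. Leaving out 1 library, the Cdh2 knockout effect ranged from -0.40 to 0.10 over all libraries, -0.072 to 0.47 in RGM and -0.73 to 0.033 in run1, Sox4 in RGM from -0.76 to 0.10, Sox3 in run1 from -0.57 to 0.71 and Tcf15 in run1 from -0.11 to 0.24. The difference between runs ranged from -0.32 to 0.10 for Pou3f1, -0.72 to 0.26 for Otx2 and -0.93 to 0.28 for Lef1, and the line difference from -0.81 to 0.12 for Sox3 in knockout, -0.67 to 0.22 for Sox4 and -0.010 to 0.44 for Zic2 in wild type. Sox4 lost its line call in knockout libraries alone (adjusted p = 0.069), and voom added Cdh2 in wild type (0.034). Whether replicate numbers pair the libraries was not settled. Deviations from the mean of each genotype and run correlated at -0.065 for same-numbered RGM libraries. That is 1 value for both numbers, because 2 libraries around their mean mirror each other. In run1 the correlations were 0.30 for number 3 and 0.34 for number 4, whose libraries are of different lines. Of 8 libraries 4, those of run1, were closest to their own number. These outcomes are not separate, because the RGM libraries mirror each other in pairs, as do the run1 wild-type libraries. The tally thus does not decide the pairing. With the replicate block 6 genes were called, 0 of them members, and Cdh2 was at 0.079. The cause of these shifts was not tested. Without the filter the all-gene median line difference in knockout libraries moved to -0.11. Depth limits Fgf5, Zic5 and Cdh2 most, with 1 to 45 counts per library.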
